A study of Mus musculus with 8 samples.

Results

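The genes described here were 8 regulators and markers of the mesenchymal state, namely Snai1, Snai2, Zeb1, Zeb2, Twist1, Twist2, Cdh2 and Vim, out of 21938 annotated protein-coding genes. They were chosen by name, and every ATAC-seq peak that overlapped the gene body or the 50 kb to each side (mm10) was taken as theirs. This gave 61 of 56514 peaks in mouse embryonic fibroblasts (MEFs), 33 of 36219 at day 5 of reprogramming, 32 of 35226 at day 10 and 26 of 48486 in embryonic stem cells (ESCs). Peaks of the 4 lists that lay within 400 bp of each other were merged into sites, and 83 of the 101701 sites of the genome fell in the windows of the 8 genes.

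ATAC-seq uses a transposase that inserts sequencing adapters into accessible DNA, so a peak marks open chromatin. The MEFs were uninfected wild-type fibroblasts of the C57BL/6J-OG2 strain, whose Oct4-GFP transgene reports pluripotency. The day 5 and day 10 cells were MEFs of the same strain that carried retroviruses for OCT4, SOX2, KLF4 and MYC (OSKM) together with the FLAG control vector, in ESC medium supplemented with 50 µg/ml vitamin C. Both ESC libraries were wild type and carried no virus. The labels give ESC replicate 1 the strain C57Bl6J and ESC replicate 2 the OG2 strain. The labels place the ESCs on feeder cells, whereas the methods describe gelatin and 2i/L medium, so medium and strain cannot be told apart from cell type where ESCs are compared. Infection, medium, vitamin C and time all differed between MEFs and the day 5 and day 10 cells, and cannot be told apart either. Each group had 2 libraries of 50000 cells, but only 1 list of peaks shared by both libraries was analysed, so no spread between libraries and no test across samples could be had. Intervals below are 95% Wilson intervals, which cover counting error only.

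The transition between epithelium and mesenchyme is driven by a small set of transcription factors. SNAI and ZEB proteins are zinc finger repressors that bind E-box sequences in epithelial genes such as Cdh1, the gene of E-cadherin, and TWIST proteins are basic helix-loop-helix factors that favour the mesenchymal state. Cdh2 encodes N-cadherin, the adhesion molecule of mesenchymal and neural cells, and Vim encodes vimentin, an intermediate filament protein of fibroblasts. Fibroblasts that are reprogrammed to pluripotency pass through the opposite change, from mesenchyme to epithelium, in its early phase.

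The sequences that follow show what kind of DNA the changes concerned. The first set holds, for some of the genes, the middle 200 bp of the MEF peak at the site that had the highest score among those with no day 5 peak. All are on the plus strand of mm10, and the windows are chr2:167570038-167570237 downstream of Snai1, chr2:44977030-44977229 downstream of Zeb2 and chr12:33981363-33981562 downstream of Twist1. Capitals mark matches, on either strand, to TGANTCA (the AP-1 motif), GGAATG (TEAD), CCNCNCCC (KLF) or CAGGTG (the E-box of SNAI and ZEB proteins).
Snai1 downstream site: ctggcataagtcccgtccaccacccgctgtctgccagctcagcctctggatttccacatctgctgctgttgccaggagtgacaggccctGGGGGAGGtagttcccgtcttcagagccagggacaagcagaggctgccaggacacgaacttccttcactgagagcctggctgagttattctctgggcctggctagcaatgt
Zeb2 downstream site: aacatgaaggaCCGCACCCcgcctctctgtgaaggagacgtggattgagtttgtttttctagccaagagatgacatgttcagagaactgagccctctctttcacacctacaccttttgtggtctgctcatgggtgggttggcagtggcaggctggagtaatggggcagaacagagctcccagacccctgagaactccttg
Twist1 downstream site: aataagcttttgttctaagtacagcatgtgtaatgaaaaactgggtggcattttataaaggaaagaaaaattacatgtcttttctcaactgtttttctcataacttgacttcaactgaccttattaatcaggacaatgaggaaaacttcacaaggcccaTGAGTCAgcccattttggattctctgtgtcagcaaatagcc

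The Snai1 and Zeb2 sites held a KLF match each, at base 90 and base 12 of the window. The Twist1 site held an AP-1 match at base 160. A match is a description of the letters and not a bound site.

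The second set shows sites that had a peak on both days of reprogramming and none in MEFs, centred on the day 5 peak. The windows are chr2:167562364-167562563 downstream of Snai1 and chr2:45024420-45024619 in an intron of Zeb2, both on the plus strand of mm10. Neither held a match to the 4 motifs or to the octamer ATGCAAAT that OCT4 binds, a motif added after the values had been seen.
Snai1 both-day site: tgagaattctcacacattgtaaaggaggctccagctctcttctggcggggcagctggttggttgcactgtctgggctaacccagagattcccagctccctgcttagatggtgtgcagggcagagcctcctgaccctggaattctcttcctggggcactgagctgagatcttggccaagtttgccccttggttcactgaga
Zeb2 both-day site: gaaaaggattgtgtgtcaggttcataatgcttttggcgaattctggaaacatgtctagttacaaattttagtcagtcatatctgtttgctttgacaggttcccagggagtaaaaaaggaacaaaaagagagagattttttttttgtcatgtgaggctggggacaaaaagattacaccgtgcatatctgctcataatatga

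The third set gives the 250 bases before the RefSeq start (GRCm38.p6, the assembly of mm10) of Snai1, chr2:167537945-167538194, and of Twist1, chr12:33957421-33957670, both plus strand, because both promoters had a peak in all 4 lists. Capitals mark a CAGGTG match on either strand. Snai1 had 1 match, written CACCTG at base 125, and Twist1 had none, and neither did Zeb2, Twist2 or Vim, the other members with a sequence in the promoter table (5 of 8). Of 32851 promoters of this length, 5657 (17.2%) held a match.
Snai1 promoter: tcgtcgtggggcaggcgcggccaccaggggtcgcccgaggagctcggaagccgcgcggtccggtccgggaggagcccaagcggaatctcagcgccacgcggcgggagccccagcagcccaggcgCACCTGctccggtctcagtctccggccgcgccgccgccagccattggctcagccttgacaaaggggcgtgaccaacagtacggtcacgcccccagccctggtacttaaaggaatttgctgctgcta
Twist1 promoter: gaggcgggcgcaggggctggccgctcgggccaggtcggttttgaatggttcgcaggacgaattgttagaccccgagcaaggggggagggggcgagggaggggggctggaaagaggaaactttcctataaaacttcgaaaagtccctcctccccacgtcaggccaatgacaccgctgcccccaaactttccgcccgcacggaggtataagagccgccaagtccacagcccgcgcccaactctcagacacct

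Across whole lists, median peak widths were 605 to 709 bp and the median fold enrichments given by the authors were 3.32 to 3.72. The MEF list was the longest and covered 46.9 Mb, against 25.1 to 34.2 Mb in the others, and read depth was unknown. Ranks below are by the authors' score within a list, as a % of its length from the top, so that a low rank is a strong peak. All 6 fibroblast marker genes examined (Col1a1, Col1a2, Col3a1, Thy1, Postn and Pdgfrb) had a peak over a start site in MEFs, against 2 on day 5, 3 on day 10 and 1 in ESCs. Of 6 ESC markers (Nanog, Esrrb, Zfp42, Dppa4, Tfcp2l1 and Tdgf1), 5 had one in ESCs, 3 in MEFs, 1 at day 5 and 2 at day 10. In bulk cultures, fewer cells with a site open and less opening per cell cannot be told apart.

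The 8 genes had fewer open sites listed at day 5 than in MEFs. Their peaks numbered 61 in MEFs and 33 at day 5, over 59 kb and 25.7 kb, and the median per gene was 7.5 and 4. At day 10 they had 32 peaks over 30.04 kb with a median of 4, and in ESCs 26 peaks over 22.5 kb with a median of 3. Over all protein-coding genes the medians were 5 peaks in MEFs, 3 on day 5, 3 on day 10 and 4 in ESCs. The members thus stood above the typical gene in MEFs and below it in ESCs. The same held for the share of the window covered by peaks, with a median over the members of 4.39% in MEFs, 1.46% on day 5, 1.63% on day 10 and 1.45% in ESCs, and over all genes of 2.98%, 1.52%, 1.92% and 2.21%.

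**Figure D1:**
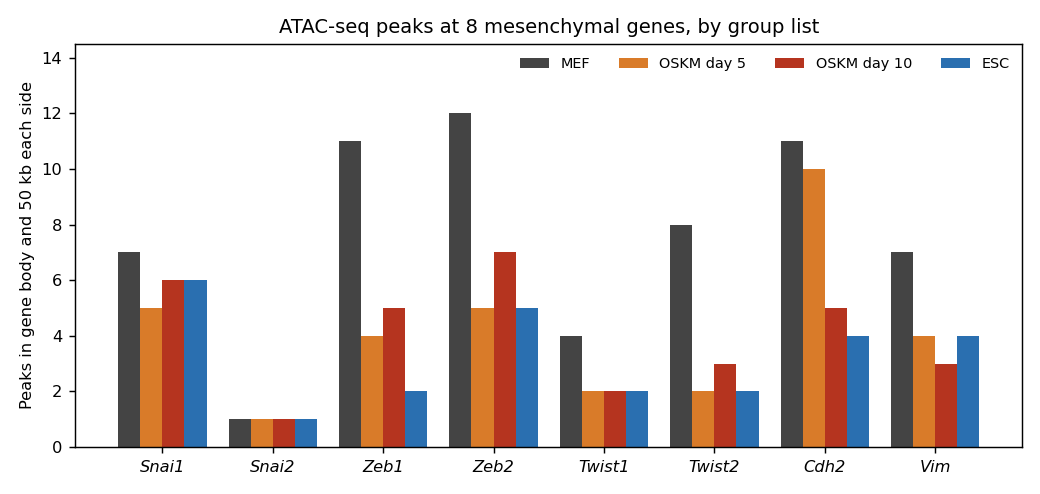
Number of peaks in the gene body and 50 kb to each side (y axis) for each of the 8 genes (x axis), with 1 bar for each group list. Zeb2 had 12 peaks in MEFs and 5 at day 5, Cdh2 had 11 and 10, and Snai2 had 1 in every list.

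Because the lists differ in length, the counts were also set against it. The members held 10.8 of every 10000 MEF peaks, 9.11 on day 5, 9.08 on day 10 and 5.36 in ESCs. Of the 8 genes, 7 had fewer peaks at day 5 than in MEFs and 1 had an equal number, whereas 63.2% of all protein-coding genes had fewer, 11.7% more and 25.2% equal numbers. When each list was reduced to its 35226 highest-scoring peaks, the members had 38 peaks in MEFs, 33 on day 5, 32 on day 10 and 19 in ESCs. In lists of equal length 5 genes had fewer peaks at day 5 (Snai1, Zeb1, Zeb2, Twist2 and Vim) and Snai2 was equal, while Cdh2, with 7 in MEFs and 10 at day 5, and Twist1, with 1 and 2, had more. For all genes the shares were then 35.6% with fewer and 28.2% with more. Most of the gap between 61 and 33 peaks thus came from MEF peaks outside the 35226 with the highest scores, and the lower number in ESCs remained.

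Of 60 sites with a MEF peak, 37 (61.7%, interval 49 to 72.9%) had no peak at day 5, 39 (65%, 52.4 to 75.8%) had none at day 10 and 46 (76.7%, 64.6 to 85.6%) had none in ESCs. Over the whole genome, 64.5% of MEF sites had no day 5 peak, 62.7% no day 10 peak and 65.5% no ESC peak. The 3 genome values lay inside the members' intervals, so the loss of MEF sites by day 5 was not distinguishable from that of the genome at this number of sites. Among the 7 members with at least 4 MEF sites, the median share without a day 5 peak was 54.5% per gene, against 50% over 13990 genes. In lists of equal length the share was 50% of 38 sites at day 5 for the members and 52.1% for the genome.

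Position separated the sites that were kept from those that were not. Within 1 kb of an annotated start site of any gene, 5 of 18 MEF sites (27.8%, 12.5 to 50.9%) had no day 5 peak, 4 (22.2%, 9 to 45.2%) no day 10 peak and 6 (33.3%, 16.3 to 56.3%) no ESC peak. The genome values were 25.9%, 22.1% and 23.6%. Farther from start sites, 32 of 42 MEF sites (76.2%, 61.5 to 86.5%) had no day 5 peak, 35 (83.3%, 69.4 to 91.7%) no day 10 peak and 40 (95.2%, 84.2 to 98.7%) no ESC peak, against 81.3%, 80.5% and 83.9% of the genome's MEF sites of this kind. Of these shares by position, only that of far sites without an ESC peak had a genome value outside the members' interval, and narrowly so. The 2 far sites with an ESC peak were chr18:5819377-5820793 downstream of Zeb1 and chr12:33966660-33968464 downstream of Twist1, and both were present in all 4 lists. By annotation, 14 of 17 intronic MEF sites had no day 5 peak, as did 15 of 20 downstream of the gene, 6 of 11 upstream and 2 of 11 over a start of the member itself. No genome values by annotation are given here, so these counts describe the members only.

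**Figure D2:**
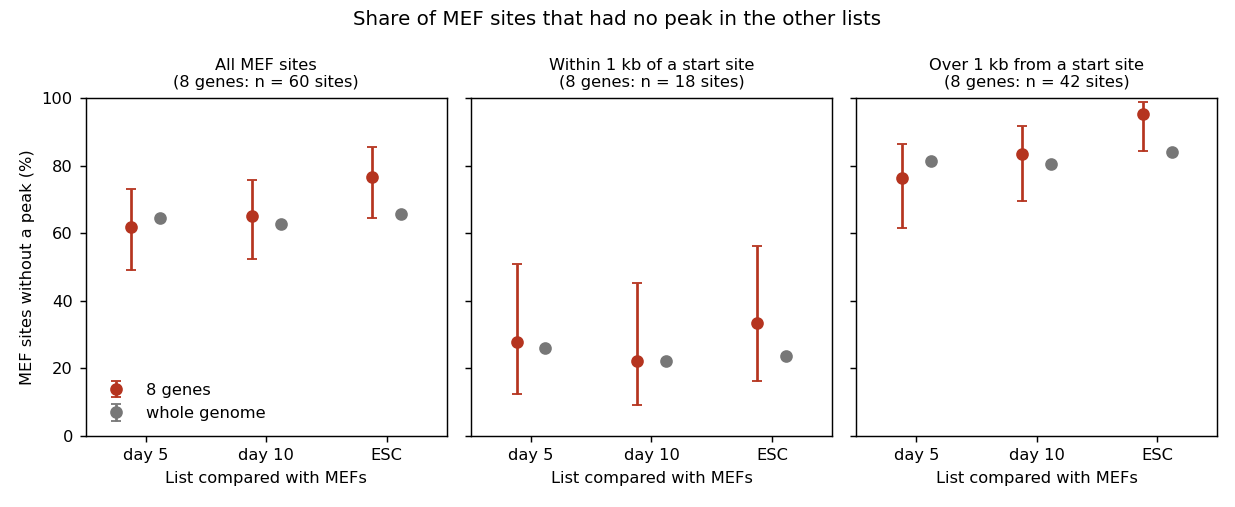
Share of MEF sites without a peak (y axis, %) at day 5, at day 10 and in ESCs (x axis), for the 8 genes in red with 95% Wilson intervals and for the whole genome in grey, in panels for all 60 member sites, the 18 within 1 kb of a start site and the 42 farther away. Near sites stayed low at 22.2 to 33.3%, far sites reached 76.2 to 95.2%, and only the far ESC point has its genome value (83.9%) outside the interval.

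MEF sites that were kept had stronger and wider MEF peaks. Far sites with a day 5 peak had a median MEF width of 1156 bp and lay at a median of 29% from the top of the MEF list by the authors' score (10 sites), whereas far sites without one had 644 bp and 55.8% (32 sites). The genome showed the same order, with 758 bp and 42.5% for kept sites and 571 bp and 61.2% for the others. Near sites with a day 5 peak were wide and strong too, at 1410 bp and 22.1% (13 sites). The lost sites still included MEF peaks with a rank as high as 3.24%.

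The commonest history was a site open in MEFs alone, which described 34 of the 83 sites (41%, 31 to 51.7%), against 29.5% of all sites of the genome. A further 14 (16.9%) were present in all 4 lists (genome 13.8%), and 9 (10.8%, 5.81 to 19.3%) in ESCs alone (genome 24.1%). Sites in MEFs and at day 5 but not later numbered 5 (6.02%, 2.6 to 13.3%), against 1.48% in the genome. At the Cdh2 site of this kind 105 kb from the start, the MEF and day 5 peaks were merged without overlapping. The genome value lay outside the members' interval for sites in MEFs alone, in ESCs alone, and in MEFs and at day 5 only. No member site was present in MEFs and ESCs and absent on both days, a history shared by 3.13% of all sites. Of the 34 MEF sites absent on both days, 0 had an ESC peak, and 9.6% of such MEF sites in the genome had one. Both counts of 0 rest on few sites and have no interval here, so no difference from the genome is read from them.

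The regulators of the SNAIL family came first among the members. Snai1 (chr2:167538195-167542814) had 7 peaks in MEFs, 5 on day 5, 6 on day 10 and 6 in ESCs. Of its 7 MEF sites 3 had no day 5 peak, all of them downstream of the gene, at 5.62, 31.9 and 37 kb from its start. The strongest was chr2:167569729-167570546, whose MEF peak was 818 bp wide with a fold enrichment of 4.7 and a rank of 5.36% by score, and it was absent from all other lists. The site over the Snai1 start, chr2:167537708-167539338, was present throughout, with ranks of 48.2% in MEFs, 23.3% on day 5, 44.5% on day 10 and 50.7% in ESCs, and its peak was 1410 bp wide in MEFs and 473 bp at day 5. A peak 24.2 kb downstream appeared on both days only, chr2:167561975-167562801. An intronic site, chr2:167540258-167540954, was in the day 10 and ESC lists, and sites 18.3 and 8.15 kb upstream were in the ESC list alone. Of the other kept sites, those 45.6 and 34.6 kb upstream lay at starts of Rnf114 or Spata2 and the one 14.9 kb downstream at Gm11476.

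Snai2 (chr16:14705852-14709385), which encodes the SLUG protein, had 1 peak in each list and no other within 50 kb. It lay over the start, chr16:14704985-14706314, and was 1279 bp wide in MEFs, 1220 bp on day 5, 1320 bp on day 10 and 1012 bp in ESCs. Its rank by score was 5.05%, 5.85%, 4.3% and 3.5%, so this promoter stood among the strongest peaks of every list, ESCs included.

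Zeb1 (chr18:5591860-5775467) had 11 peaks in MEFs, 4 on day 5, 5 on day 10 and 2 in ESCs. Of its 10 MEF sites, 7 had no peak at day 5 and the same 7 had none in any other list. Most were intronic, 18, 27.8, 104 and 149 kb into the gene, and the highest-scoring was chr18:5739941-5740828, with an 888 bp peak and a fold enrichment of 5.14 in MEFs. An internal start 11.8 kb into the gene had a peak in MEFs alone (rank 95.7%). The main start site, chr18:5591161-5593476, was present throughout, but only the ESC peak, 2106 bp wide, reached the 5′ end of the gene, and the other peaks over a start were centred 1.19 to 1.4 kb inside it. A site 228 kb from the start, beyond the gene's end, had a MEF rank of 2.87% and was kept in all lists. In the intron, chr18:5693850-5694970 had a peak on both days and in neither MEFs nor ESCs, next to a MEF-only site at chr18:5695833-5696308. At chr18:5747664-5749601 the MEF peak and the day 5 and day 10 peaks lay side by side without overlapping, and the site counts as kept because peaks within 400 bp were merged.

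Zeb2 (chr2:44983632-45117395, minus strand) had the most MEF sites without a day 5 peak. It had 12 peaks in MEFs, 5 on day 5, 7 on day 10 and 5 in ESCs, and 10 of its 12 MEF sites had no day 5 peak. A row of 5 sites beyond its end, 140.3 to 173 kb from the start, was present in MEFs alone, and the strongest, chr2:44976454-44977805, was 1352 bp wide with a fold enrichment of 4.36 and a rank of 3.24%. In this row chr2:44970263-44970863 had a peak at day 10 and in ESCs. The 5′ start, chr2:45116266-45117516, had a weak peak in MEFs (rank 84.1%) and at day 10 (76.9%) and none at day 5 or in ESCs. Internal starts about 7.39 kb into the gene, chr2:45109285-45110728, within 1 kb of starts of Zeb2os and Gm27761, had a peak in every list with ranks of 70.8 to 86.6%. Both-day peaks absent in MEFs lay in an intron, chr2:45023876-45025116, within 1 kb of the start of Mir5129, and 29.8 kb upstream, chr2:45147021-45147420. At the upstream site the day 5 and day 10 peaks lay side by side without overlapping and were merged. Without Zeb2 the members' share of MEF sites with no day 5 peak was 56.2%.

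**Figure D3:**
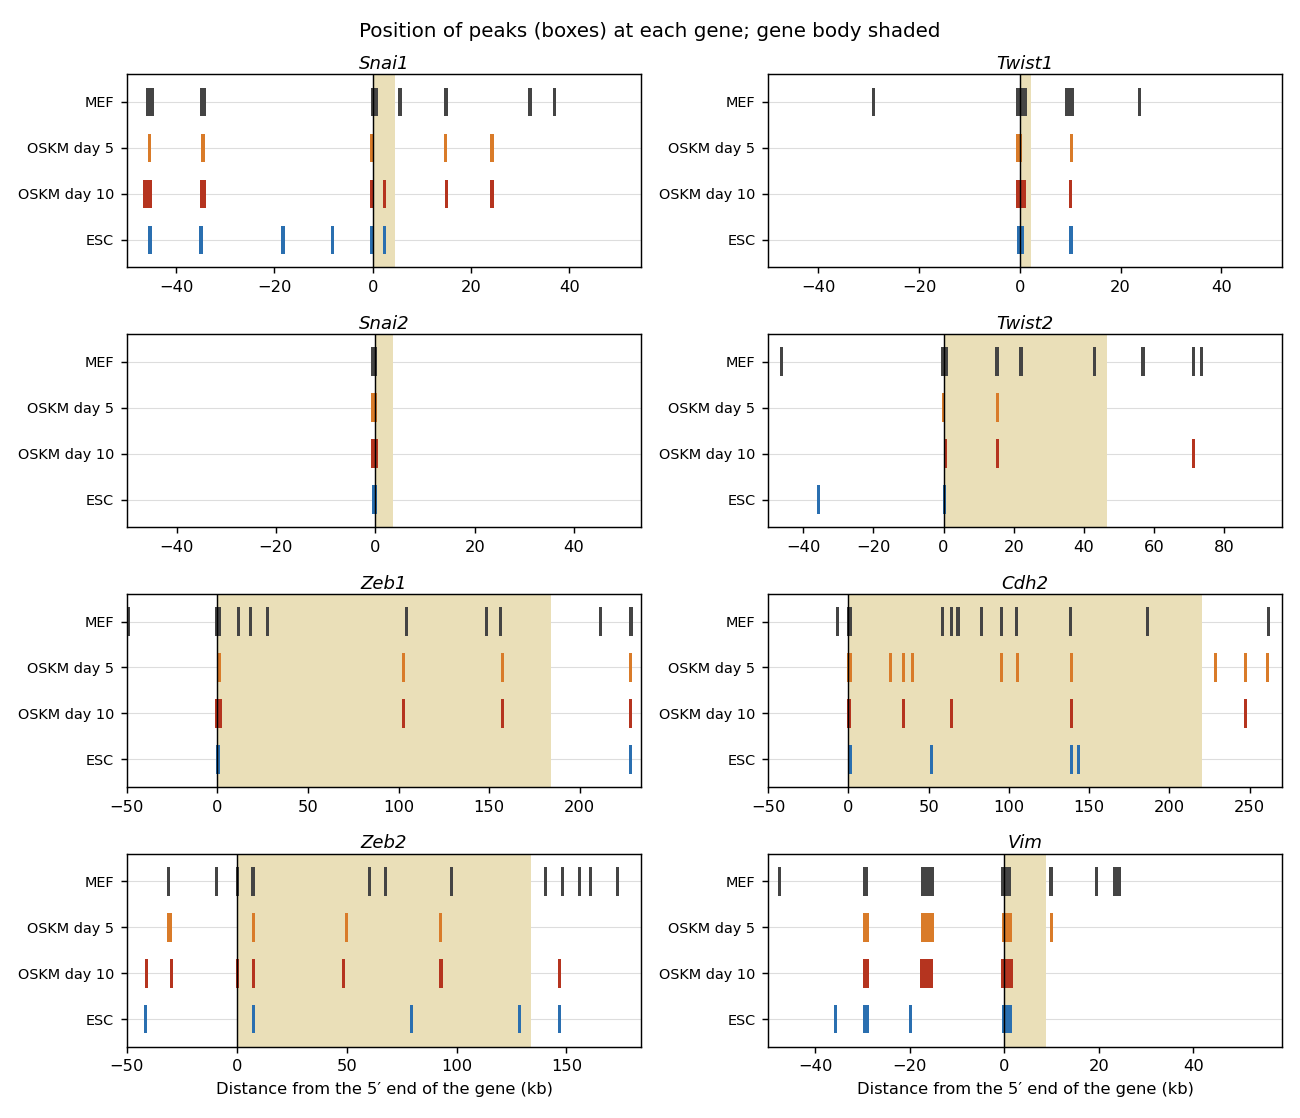
Position of every peak (boxes, drawn with a minimum visible width) relative to the 5′ end of each gene in its direction of transcription (x axis, kb), in rows for the 4 group lists, with the gene body shaded. Peaks at the 5′ end recur in nearly all rows, whereas the row of 5 MEF peaks beyond the end of Zeb2 and most intronic MEF peaks of Zeb1 have no counterpart below (the day 10 and ESC boxes near 147 kb at Zeb2 are a separate site).

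Among the TWIST genes, Twist1 (chr12:33957671-33959829) had 4 peaks in MEFs and 2 in each other list. The same 2 sites remained everywhere, the start, chr12:33956821-33959108, and a site 9.89 kb from it. The start peak was 2288 bp wide in MEFs, 1321 bp on day 5, 1934 bp on day 10 and 1560 bp in ESCs, at ranks of 38.9%, 58.4%, 51.1% and 73.8%. The MEF sites with no day 5 peak were weak, with ranks of 95.7% for chr12:33928523-33928753, near starts of Ferd3l and Gm40383, and 75.5% for chr12:33981299-33981627. Neither was among the 35226 highest-scoring MEF peaks.

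Twist2 (chr1:91801461-91848028) had 8 peaks in MEFs, 2 on day 5, 3 on day 10 and 2 in ESCs. Of its 8 MEF sites 6 had no day 5 peak, and the highest-scoring of them was chr1:91822877-91824060 in the intron, near a start of Gm29101 (rank 39.6%). Its start had a 2111 bp peak in MEFs (rank 29.6%) and an 848 bp peak at day 5 (74.1%). In the day 10 and ESC lists the nearest peaks, chr1:91801515-91802587 and chr1:91801580-91802058, began just inside the gene and did not cover a start, which made Twist2 the one member without a start peak in those lists. An intronic site 15.2 kb in, chr1:91816064-91817184 (MEF rank 10.8%), was kept on both days and absent in ESCs. A site 71.3 kb from the start had no day 5 peak and one at day 10. It and a MEF-only site 73.5 kb from the start carry the same peak name and score in the MEF list.

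Of the markers, Cdh2 (chr18:16588877-16809246, minus strand) had nearly as many peaks at day 5 as in MEFs, at partly different sites, and fewer in the later lists. It had 11 peaks in MEFs, 10 on day 5, 5 on day 10 and 4 in ESCs. At day 5, 6 of 11 MEF sites had no peak, and 5 sites absent in MEFs had one. Of these 5, chr18:16561297-16562257 beyond the gene's end and chr18:16774507-16774973, which overlaps an exon, were also present at day 10, and 3 at 229, 39.9 and 26.5 kb from the start were seen at day 5 alone. A further 3 sites, 261, 105 and 95.5 kb from the start, were in MEFs and at day 5 and in no later list. The highest-scoring MEF site with no day 5 peak, chr18:16744764-16745683, had a peak again at day 10. The start, chr18:16806982-16809815, had wide peaks in all lists (2834, 2721, 2014 and 2768 bp), at ranks of 22.1%, 62.9%, 20.6% and 43.9%. An internal start 139 kb into the gene was covered by a peak at day 5 (rank 14.7%) and day 10 (34.4%), whereas the MEF and ESC peaks at that site lay beside it.

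Vim (chr2:13573927-13582826) had 7 peaks in MEFs, 4 on day 5, 3 on day 10 and 4 in ESCs. The start, chr2:13573220-13575692, kept a peak of about the same width in every list (1984, 2209, 2473 and 2065 bp), but its rank by score was 3.24% in MEFs, 4.43% on day 5, 14.7% on day 10 and 42.7% in ESCs. The fold enrichment of these peaks was 3.11, 3.5, 2.7 and 2.77, and the ranks come from lists of different length and unknown depth. A 2775 bp MEF peak 16.2 kb upstream, part of chr2:13556055-13559092, was kept on both days and absent in ESCs. Its ranks were 14.3%, 64.4% on day 5 and 68% on day 10, whereas its fold enrichment (2.96, 2.83 and 2.73) and its width (2775, 2730 and 2797 bp) differed little. The site 29.3 kb upstream, at a start of Trdmt1, was in all lists. Of its 7 MEF sites 3 had no day 5 peak, and chr2:13583465-13584351 just beyond the gene was listed in MEFs and at day 5 only.

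Most of the 8 genes had a peak over a start site in every list. In MEFs 8 of 8 members had a peak over an annotated start, against 59.98% of all protein-coding genes. At day 5 it was 8 of 8 against 52.1%, at day 10 7 of 8 against 56%, and in ESCs 7 of 8 against 55.8%. Any annotated start could count, and Zeb1 had 11 of them and Zeb2 29. At the 5′ end alone it was 7, 6, 6 and 6 members, a count for which no share of all genes is given here. Of 11 merged sites that include a member's start, 9 had a peak in all 4 lists, and the exceptions were the internal Zeb1 start and the 5′ Zeb2 start. In these 9 the peak need not cover the start, and at Twist2 (day 10 and ESCs) and the internal Cdh2 start (MEFs and ESCs) it lay beside it. Among the higher-scoring 50% of each list, start peaks were left for 7 members in MEFs, 4 on day 5, 4 on day 10 and 3 in ESCs, against 52.5%, 37.7%, 46.3% and 42.5% of all genes.

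Between the days the member sites continued to turn over. Of 23 MEF sites with a day 5 peak, 5 (21.7%) had none at day 10, against 11.1% in the genome, and 3 of the 5 belonged to Cdh2, with the others at Zeb2 and Vim. This share rests on few sites and no interval is given for it. At the Cdh2 site 105 kb from the start, the MEF and day 5 peaks did not overlap. Of 37 without a day 5 peak, 3 (8.11%) had one at day 10, against 8.8% in the genome, at Zeb2, Twist2 and Cdh2. Sites with no MEF peak made up a smaller part of the later lists than in the genome, but the genome values lay inside the intervals. Of 33 sites with a day 5 peak, 10 (30.3%, 17.4 to 47.3%) had no MEF peak, against 44.3%. At day 10 it was 10 of 31 (32.3%, 18.6 to 49.9%) against 40.1%, and in ESCs 12 of 26 (46.2%, 28.8 to 64.5%) against 59.7%. Sites on both days and not in MEFs or ESCs numbered 6, at Snai1, Zeb1, Zeb2 (2 sites) and Cdh2 (2 sites), or 7.23% of the member sites against 6.85% of all sites. At the upstream Zeb2 site the day 5 and day 10 peaks were merged without overlapping.

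Motif letters in the 200 bp windows followed the genome at far sites. AP-1 matches occurred in 10 of 32 far MEF sites without a day 5 peak (31.2%, 18 to 48.6%), against 29.7% of such sites in the genome, and 5 of the 10 lay at Zeb2. TEAD matches occurred in 7 (21.9%, genome 19%), KLF matches in 7 (21.9%, genome 15.3%) and the E-box in 1 (genome 7.39%). Of the 10 far sites that were kept, 3 held an AP-1 match (genome 22.4%). Within 1 kb of start sites 0 of 18 held AP-1 (genome 6.94%), 7 held KLF (38.9%, genome 44.8%) and 4 the E-box (22.2%, genome 13%). In the 6 both-day sites none of the 5 motifs was found, where 4.38% (octamer) to 22.1% (KLF) of such sites in the genome had a match.

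Other genes of the pathway were counted from lists fixed by name. The counts for these lists were not set against the length of the peak lists, of which the MEF list was the longest. With peak lists of equal length, the share of all protein-coding genes with fewer peaks at day 5 was 35.6% instead of 63.2%. No such value is given for the further genes. Of 24 further mesenchymal and transition genes, 20 had fewer peaks at day 5 than in MEFs, 2 more and 2 equal numbers, with 191 peaks in MEFs, 128 on day 5, 125 on day 10 and 120 in ESCs. The largest differences were at Tcf4, a basic helix-loop-helix factor, with 19 and 10 peaks, at Itgb1, which encodes integrin beta 1, with 12 and 4, and at Foxc2, a forkhead factor, with 9 and 3. Klf8 (3 and 4) and Sox9 (4 and 5) were the 2 with more. Of 191 MEF sites of this list, 109 (57.1%, 49.98 to 63.9%) had no day 5 peak, against 64.5% of the genome's MEF sites. The genome value covers MEF sites inside and outside gene windows, and no split by distance from start sites is given for this list. Over all protein-coding genes with at least 4 MEF sites, the median share per gene was 50%. In the 4 lists 22, 19, 22 and 14 of the 24 genes had a start peak, against 59.98%, 52.1%, 56% and 55.8% of all genes. Among 20 epithelial genes, 13 had fewer peaks at day 5, 4 more and 3 equal numbers, with 97, 68, 84 and 103 peaks in the 4 lists. The largest differences were 8 and 3 peaks at Cldn4, 10 and 5 at Tjp3 and 8 and 4 at Cldn3. The 4 with more were the microRNA genes Mir200a, Mir200b and Mir429, which share a window (2 and 3), and Mir200c (6 and 7), all of the family that represses Zeb1 and Zeb2. Windows of other epithelial genes overlapped too, so a peak could count for several genes, whereas the list totals count each peak once. Of 97 MEF sites of the epithelial list 40 (41.2%, 32 to 51.2%) had no day 5 peak, again with no split by distance from start sites. A start peak was found at 9, 6, 8 and 9 of the 20 epithelial genes in the 4 lists. None of the 4 microRNA genes had one, so these counts were not set against the shares of protein-coding genes. In ESCs the epithelial list thus had about as many peaks as in MEFs, and the further mesenchymal genes and the 8 members had fewer.

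**Figure D4:**
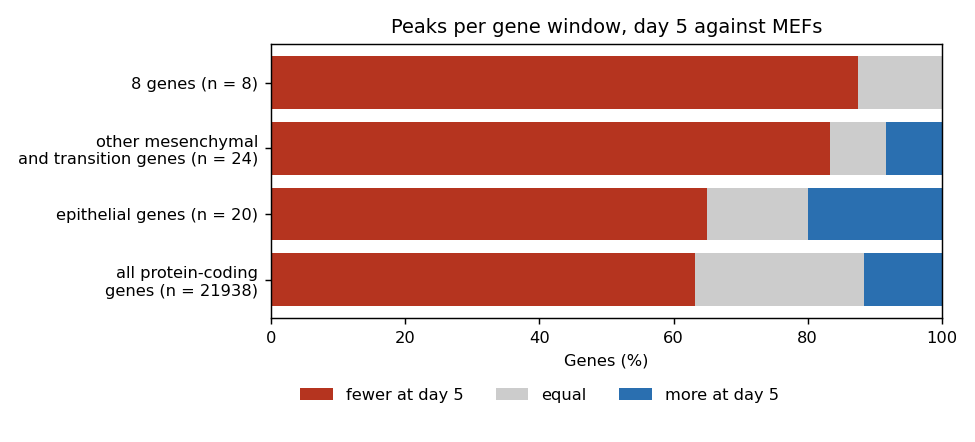
Share of genes (x axis, %) with fewer (red), equal (grey) or more (blue) peaks at day 5 than in MEFs, for the 8 genes, the 24 further mesenchymal and transition genes, the 20 epithelial genes and all 21938 protein-coding genes. Fewer peaks were seen for 87.5%, 83.3%, 65% and 63.2% of genes, in that order. The MEF list is the longest, and these counts were not set against list length.

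Among the genes whose peaks were spread over the 4 lists most like those of the members together (40.1% in MEFs, 21.7% on day 5, 21.1% on day 10 and 17.1% in ESCs) were Pard3b, Ulk4, Agpat2 and Dok5. Likeness was the Euclidean distance between the 4 shares, over 2115 genes with at least 10 MEF peaks. Pard3b was nearest, with 21, 12, 11 and 9 peaks and a distance of 0.0111, and Ulk4 had 16, 9, 9 and 7 and a distance of 0.0145. As many as 80 genes lay within 0.05, so the order rests on few peaks.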

How the data were processed

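ATAC-seq reads of 8 libraries were mapped by the authors to mm10 with Bowtie2 (version 2.2.0 in the submitters' processing notes, another version in the methods), filtered for mapping quality and uniqueness and cleared of mitochondrial reads. The peak caller and any shift of read ends are not given in the sources used here. The authors deposited 1 peak list per group, named as an intersection. Of the deposited columns, those used were a score, the fold enrichment over background (a ratio) and the −log10 q-value, all made by the authors. The score is 10 times the −log10 q-value, truncated. Score and fold seem to belong to the wider replicate 1 peak, so they were used only to rank or describe. Read depth is unknown, and absence of a peak is not proof of closed chromatin. Columns of other series numbered 0.

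Genes, exons and 132666 start sites came from GENCODE mouse release 21, and promoter sequences from RefSeq (GRCm38.p6). The lists covered 21 chromosomes and 0 peaks ran past a chromosome end. Sites, overlaps, motif matches on both strands and Wilson intervals were computed with Python 3.11.15, pandas 2.3.3, pysam 0.24.0 and statsmodels 0.14.6, and the site counting was tested on simulated peaks. Groups came from the sample titles. No test across samples was possible with 1 list per group. All 8 members were named. In other lists the 3 genes with the largest difference in each direction were named, with ties in alphabetical order. In each member the start site, the highest-scoring MEF site without a day 5 peak and all sites on both days but not in MEFs were given in full, except for 1 site, and 1 similar gene is likewise not reported here. Other sites were singled out after their values were seen. The members and all gene lists were chosen with earlier results of these data known. Alternatives were other windows, score thresholds, merging distances and overlaps, and leaving out each gene.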

Additional observations from a re-analysis of the deposited data

How the results depend on the processing

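Of 137 recomputed values over the members together, 123 stayed close to the value given (within 1.5 times for counts, within the counting interval for shares) and 14 moved. In gene bodies alone the members had 29 peaks in MEFs, 19 on day 5, 18 on day 10 and 14 in ESCs. In the higher-scoring 50% of each list they had 33, 14, 18 and 10, with 78.8% of MEF sites without a day 5 peak (genome 64.6%) and a start peak at 7 genes in MEFs, 4 on day 5, 4 on day 10 and 3 in ESCs. With lists of equal length the MEF peaks numbered 38. When a shared peak had to cover 50% of both peaks, 80.3% of MEF peaks had no day 5 partner (genome 75.2%). The cause of these shifts was not tested, apart from the smaller number of peaks in the reduced lists and windows. Leaving out sites near starts of other genes gave 68% on day 5, 72% on day 10 and 84% in ESCs. No genome values are given for this setting, which removes sites near start sites, a kind that was kept more often. Of 224 peak counts for single genes, 70 moved by over 1.5 times, and with equal lengths Cdh2 and Twist1 had more peaks at day 5 than in MEFs. No paired analysis was possible because each group had 1 peak list, and for the same reason no replicate could be left out. Depth limits how far a missing peak can be read.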
